A study of Mus musculus with 27 samples.

Results

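The matrix metalloproteases (MMPs), the ADAMTS proteases and the tissue inhibitors of metalloproteases (TIMPs) were followed across the cells of tumour-bearing and wild-type (WT) mouse lung. Every gene of the deposited expression table whose mouse symbol is Mmp, Adamts or Timp followed by a number was taken, 45 of 16024 genes in all, comprising 22 MMPs, 19 ADAMTS and 4 TIMPs. Expression had been measured by RNA sequencing in 27 libraries and was used as FPKM, fragments scaled to transcript length and library size. The tumours were of the mouse lung cancer line HKP1, given to C57BL/6 mice through the tail vein, and were 20 to 25 days old. The macrophage gate was CD11c+CD11b+ in tumour lung (n = 3) and CD11c+CD11b- in WT lung (n = 2). Monocytes were CD11b+Ly6C+ cells (n = 2 tumour and 2 WT) and neutrophils CD11b+Ly6G+ cells (n = 3 and 3). The epithelial gate was Epcam+CD11b-CD11c- (n = 3 and 3). Unsorted cells of the total lung were sequenced from tumour and WT lungs as well (n = 3 and 3). All groups came from the same strain, and the WT lungs are labelled as free of tumour. The labels give neither ages nor the animal behind each library, and the spread that enters a p-value is therefore that between samples and may be technical. The Epcam gate does not part tumour epithelium from other epithelium of the same lung.

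MMPs are zinc proteases made as inactive precursors, most of them secreted and some anchored to the membrane, and together they cut collagens, elastin, proteoglycans and cell-surface proteins. ADAMTS proteases are secreted relatives that process procollagens, aggrecan, versican and von Willebrand factor. TIMPs bind the active site of MMPs and, in the case of Timp3, of several ADAM and ADAMTS proteases. In lung, macrophage elastase (Mmp12) is known for its part in smoke-induced emphysema in mice, and neutrophils store collagenase and gelatinase in their granules.

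A block of 9 of the MMP genes lies side by side on mouse chromosome 9 (GRCm38, GENCODE M21), between base 7272514, where Mmp13 starts, and base 7699585, where Mmp7 ends. Several genes of this block, Mmp13, Mmp12 and Mmp10 among them, carried the changes described here, so their promoters are shown. RefSeq promoters (GRCm38.p6), reaching from 250 bases before to 50 bases after the start site, were on hand for 31 of the 45 genes. The letters TGANTCA, the core of the AP-1 element, which read the same on both strands and so needed a single scan, were present in the promoters of 7 of these 31 genes. All 7 belong to the block on chromosome 9: Mmp13, Mmp12, Mmp3, Mmp1a, Mmp10, Mmp20 and Mmp7. Of these, Mmp1a, Mmp20 and Mmp7 averaged below 1 FPKM in every group. The genes without a promoter on hand, which could not be scanned, include Mmp2, Mmp9 and Mmp19. The promoters of Mmp8 and Mmp27, the other genes of the block, did not contain these letters. Among all 27025 genes with a RefSeq promoter, 2425 (8.97%) had them in at least 1 window. The 150 bases upstream of the start of 4 of the genes are printed 5′ to 3′ on the plus strand, with the AP-1 letters in capitals, at chr9:7272364-7272513 for Mmp13, chr9:7347224-7347373 for Mmp12, chr9:7445672-7445821 for Mmp3 and chr9:7502192-7502341 for Mmp10. The Mmp12 window belongs to 1 of the gene's RefSeq start sites, and the window of the other did not hold the letters.
Mmp13: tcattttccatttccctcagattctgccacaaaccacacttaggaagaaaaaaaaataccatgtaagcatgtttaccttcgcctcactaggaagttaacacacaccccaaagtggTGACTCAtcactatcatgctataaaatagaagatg
Mmp12: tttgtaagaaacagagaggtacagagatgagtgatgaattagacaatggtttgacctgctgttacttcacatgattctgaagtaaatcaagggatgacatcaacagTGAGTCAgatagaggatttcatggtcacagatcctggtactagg
Mmp3: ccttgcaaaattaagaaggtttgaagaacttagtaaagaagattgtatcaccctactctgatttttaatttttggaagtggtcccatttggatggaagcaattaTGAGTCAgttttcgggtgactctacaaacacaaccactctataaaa
Mmp10: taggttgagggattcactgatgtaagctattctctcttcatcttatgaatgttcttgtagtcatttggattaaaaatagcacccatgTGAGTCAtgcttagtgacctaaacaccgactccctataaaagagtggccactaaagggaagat
The first capital stands 35 bases before the start in Mmp13, where the letters are TGACTCA. In Mmp12, Mmp3 and Mmp10 the letters are TGAGTCA, and the first of them stands 44, 46 and 63 bases before the start. A match of letters describes the sequence and says nothing about whether a factor binds there.

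Of the 45 genes, 23 averaged 5 FPKM or more in 1 or more of the 10 groups and 6 others peaked between 1 and 5 FPKM. The other 16 averaged below 1 FPKM in every group: Mmp1a, Mmp7, Mmp16, Mmp17, Mmp20, Mmp21, Mmp24, Mmp27, Adamts3, Adamts4, Adamts12, Adamts16, Adamts17, Adamts18, Adamts19 and Adamts20. Of these, 12 did not reach 1 FPKM in any single library. No gene was listed at 0 in all 27 libraries. Some genes of the table that most cells use are also listed at exactly 0 in a group, so a listed 0 is given as such and not as absence.

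**Figure D1:**
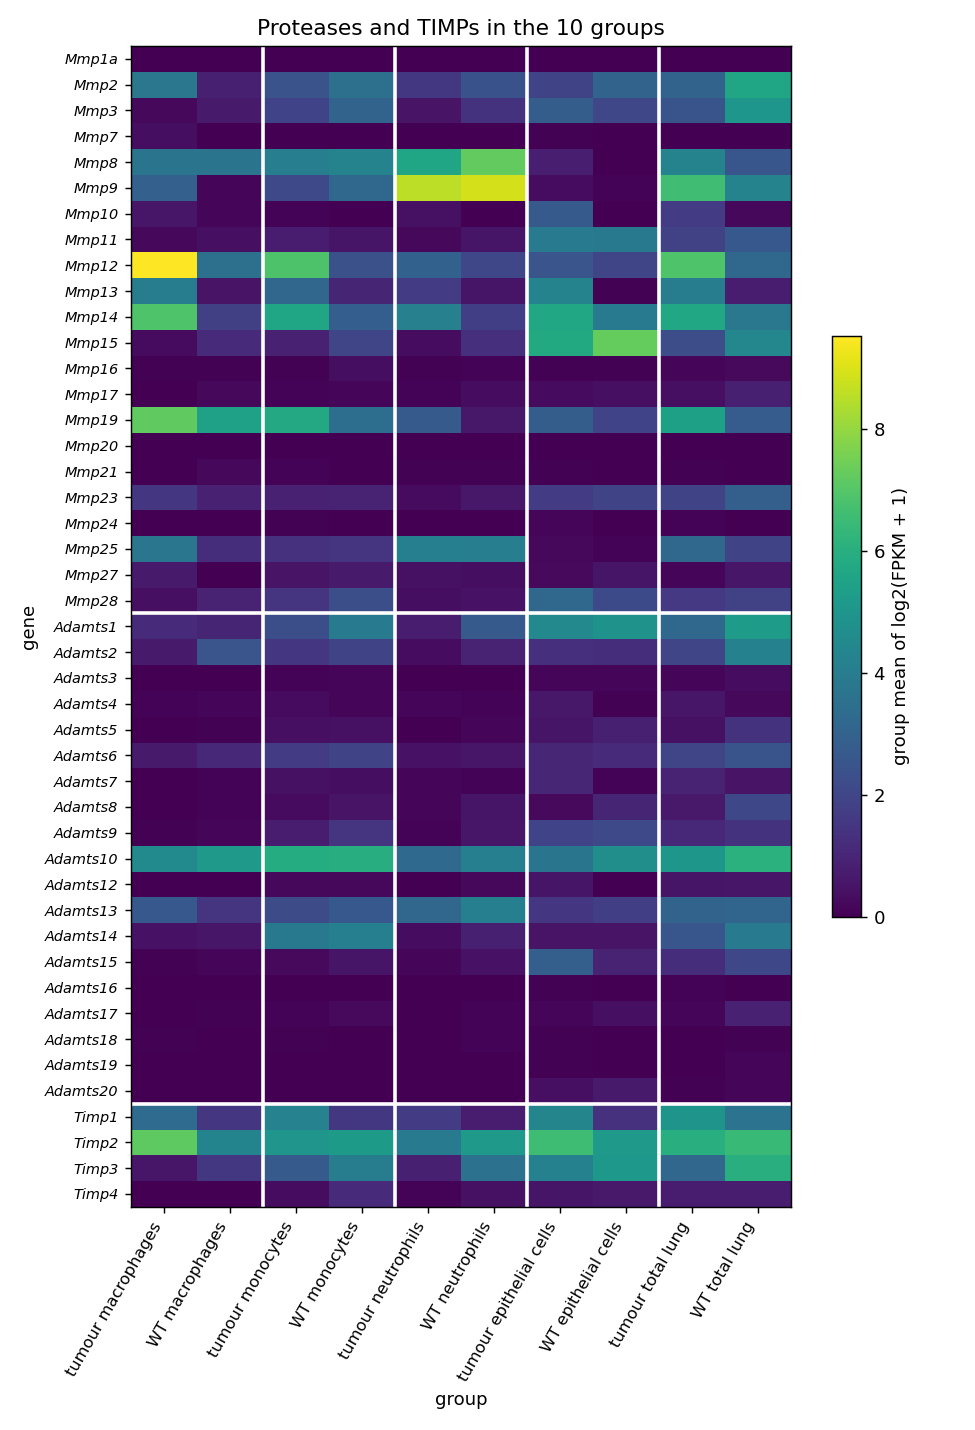
Group means of log2(FPKM + 1) for the 45 genes (rows, MMPs above ADAMTS above TIMPs) in the 10 groups (columns, tumour left of WT within each preparation). The brightest cells are Mmp12 in tumour macrophages and Mmp9 in tumour and WT neutrophils, and 16 rows stay below 1 FPKM in every column.

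To ask which sorted cell held most of each transcript, each preparation was compared with the other 3 of the same lung in 1 limma fit of all 10 groups. A gene was counted for a preparation if it was higher than in each of the other 3 with an adjusted p under 0.05 and a log2 difference of at least 1. Among the 30 genes of the families that could be tested, tumour macrophages held Mmp12, Mmp14 and Mmp19 (2.39% of all 12642 genes met the rule there), and tumour neutrophils held Mmp8 and Mmp9 (3.14%). Tumour monocytes held Adamts10 and Adamts14 (2.22%). Tumour epithelial cells held 8 genes, Mmp10, Mmp11, Mmp15, Mmp28, Adamts1, Adamts9, Adamts15 and Timp3 (18.9%). In WT lung, Mmp19 was counted for macrophages (4.12%), Adamts14 for monocytes (3.35%), Mmp8, Mmp9, Mmp25 and Adamts13 for neutrophils (4.95%), and Mmp11, Mmp14, Mmp15 and Timp3 for epithelial cells (16.7%). The epithelial counts stood against a background several times that of the other preparations. Some of these placements rested on single libraries. Mmp12 missed the rule with a pseudocount of 0.1 and without tumour macrophage replicate 2 (adjusted p = 0.0544 against monocytes), and Mmp19 without tumour macrophage replicate 3 (adjusted p = 0.0571 against monocytes). Mmp8 missed it without tumour neutrophil replicate 7 (adjusted p = 0.0645 against monocytes) and Adamts9 without tumour epithelial replicate 10 (a log2 difference of 0.92 from monocytes). In WT epithelial cells, Mmp14 and Timp3 missed it without replicate 10 (log2 differences of 0.92 and 0.79 from monocytes). Without WT monocyte replicate 3, 4 genes met it in WT monocytes.

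Tumour was then compared with WT within each preparation, by limma on log2(FPKM + 1), with p-values adjusted over all genes that reached 1 FPKM in 2 or more of the libraries in question. In macrophages 17 of the 45 genes could be tested, and 10 were higher and 3 lower in tumour lung. Of all 10119 genes tested there, 37.9% were called, 20.3% higher and 17.7% lower. In neutrophils 16 could be tested, and 5 were higher and 8 lower, against 59.1% of all genes called (33.3% higher and 25.8% lower). Of 22 tested in epithelial cells, 8 were higher and 3 lower, against 23.8% of all genes called (14.9% higher and 8.89% lower). Of 28 tested in total lung, 9 were higher and 13 lower, against 42.5% of all genes called (22.1% higher and 20.4% lower). The median log2 difference over the genes of the families that were tested was 1.74 for macrophages (0 over all genes tested) and -0.84 for neutrophils (0.11), while epithelial cells gave 0.29 (0.01) and total lung -0.49 (-0.01). Genes of low level entered a test only where 1 group was high, so these counts and medians describe the tested genes and not the whole families.

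In monocytes 21 of the genes could be tested and limma called none of them, nor any of all 10366 genes (0%). At an unadjusted p under 0.05 there were 10 of the 21 and 1559 of all genes. The lowest adjusted p among the families was 0.131, for Mmp12. Without tumour monocyte replicate 5, 6 of the genes passed: Mmp12, Mmp14, Mmp19 and Timp1 higher, Adamts1 and Timp3 lower (3.05% of all genes were called). In the fit of all 10 groups 6 passed as well, with Mmp13 in place of Timp3 (8.5% of all genes). The monocyte values are therefore given without a call.

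Across the preparations with calls, Mmp13, Mmp14 and Timp1 were higher in tumour macrophages, neutrophils, epithelial cells and total lung alike, and Adamts10 and Timp3 were lower in all 4. Of the genes of the families, 11 were tested in all 4. These comparisons share no libraries, but total lung contains the sorted cell types. The labels do not say whether preparations came from the same animals. Among the 8701 genes tested in all 4 preparations, 1.3% were higher and 1.15% lower in each.

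**Figure D2:**
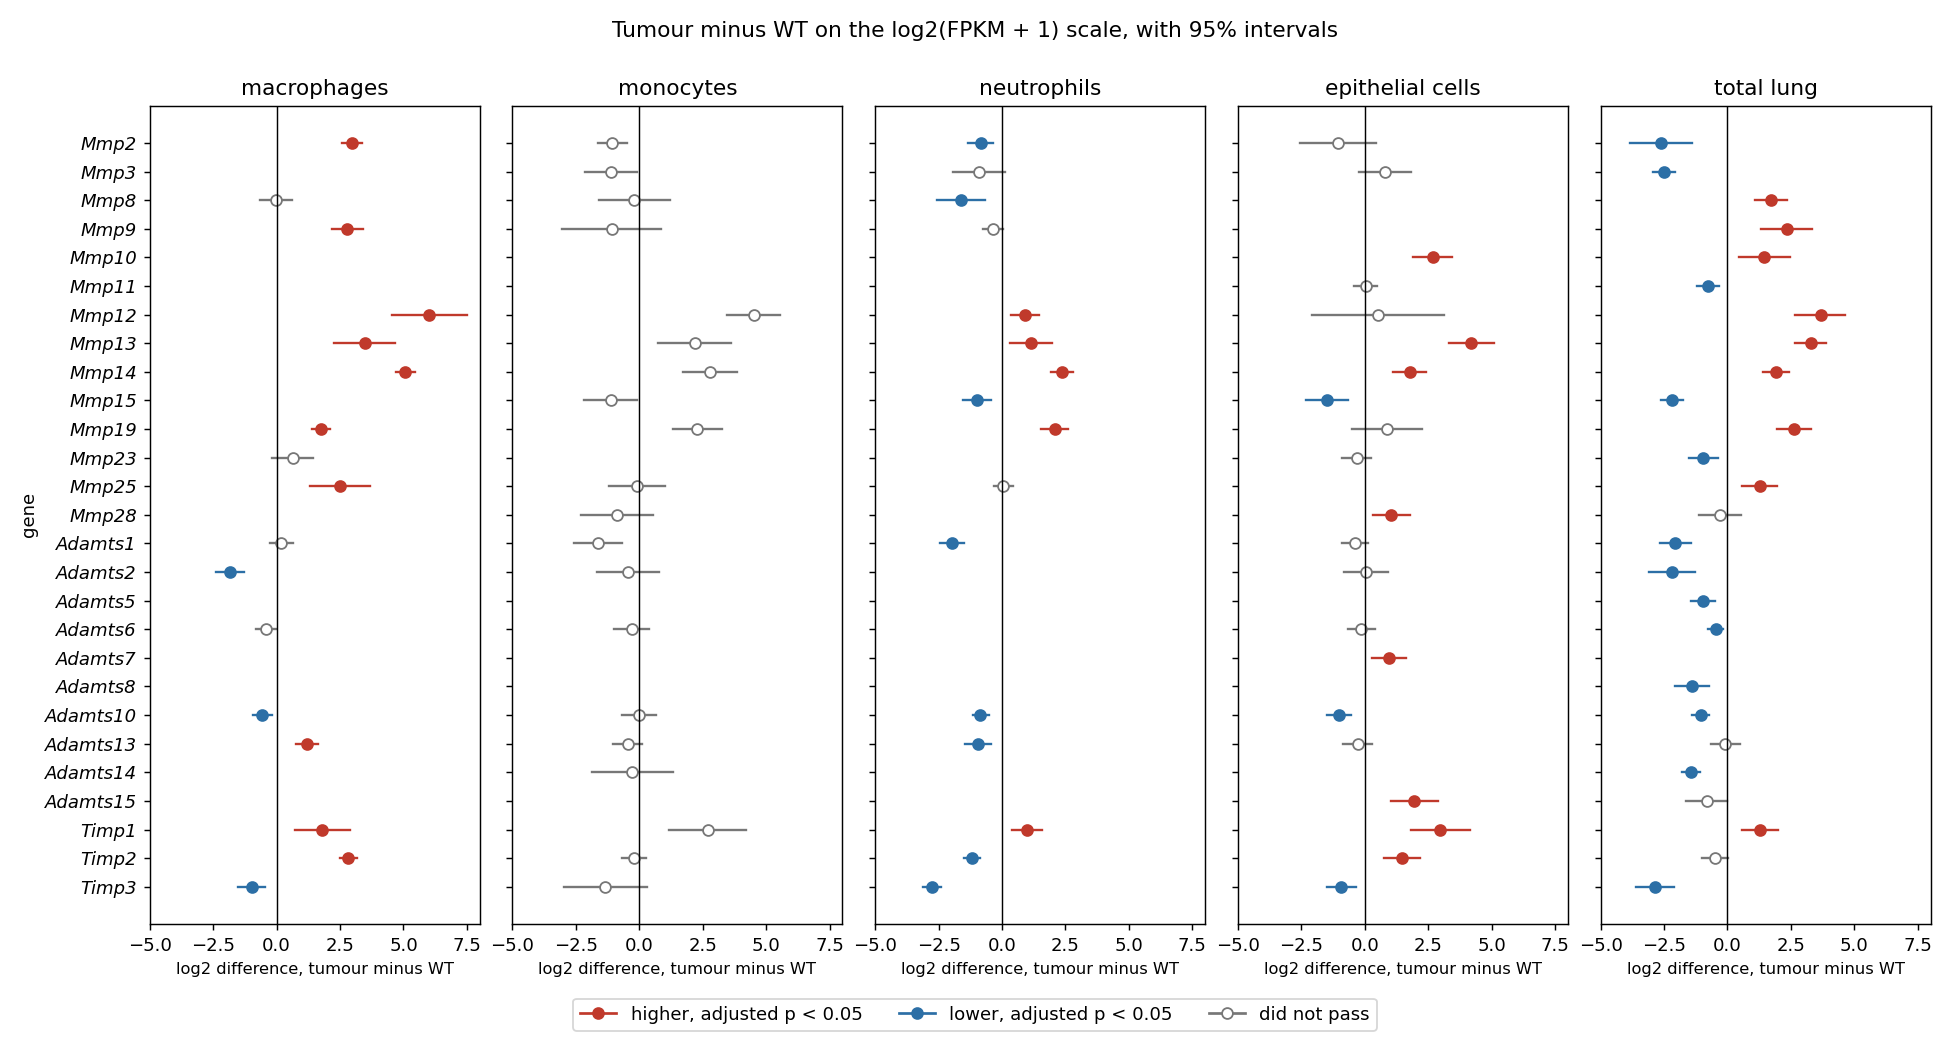
Tumour minus WT differences in log2(FPKM + 1) with 95% confidence intervals for the genes tested, by preparation; filled points passed an adjusted p under 0.05 by limma. Macrophage points reach 6.02 (Mmp12), neutrophil points -2.75 (Timp3) and epithelial points 4.2 (Mmp13), and no monocyte point is filled.

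The sorts bear on every comparison. Itgam, which encodes CD11b, averaged 126.9 ± 13 FPKM in tumour macrophages and 1.3 ± 0.144 FPKM in WT macrophages (SD, n = 3 and 2), as the gates set it, so that the tumour and the gate cannot be told apart there. In tumour epithelial cells Epcam averaged 91.1 ± 6.24 FPKM, against 87.1 ± 8.7 FPKM in WT ones. Csf3r, the receptor gene of granulocyte colony-stimulating factor, averaged 1149.9 ± 177.8 FPKM in tumour and 1807.2 ± 222.4 FPKM in WT neutrophils. The epithelial markers (5 of 5 in the table) summed to 1420.3 to 2663.4 FPKM in tumour and 720.1 to 802.1 FPKM in WT epithelial cells. Of these, 3 were called higher in tumour. The alveolar type II genes Sftpc and Sftpb were listed at 0 in every epithelial library of tumour and WT lung. Sftpa1 was at 0 in all WT epithelial libraries, and Sftpc in all WT total lung libraries. The 5 alveolar type II markers summed to 967.1 to 6548.8 FPKM in tumour and 1089.0 to 1612.1 FPKM in WT epithelial cells. These sums do not hold the same genes, because Sftpa1 enters only the tumour sum. Lamp3 and Abca3, listed above 0 in both groups, averaged 410.5 and 164.6 FPKM in tumour epithelial cells. In WT epithelial cells they averaged 1052.4 and 361.4 FPKM. Of the 3 type II markers tested there, 1 was called higher and 0 lower in tumour, with a median log2 difference of -1.3. Libraries had between 8560 and 11420 genes at 1 FPKM or more, and log2 values of replicates correlated at 0.964 to 0.996 (Pearson, across genes, which are not independent replicates). Read counts were not analysed, so depth was only estimated in relative terms, at 0.612 to 1.58 times that of tumour macrophage replicate 1. On that scale tumour and WT libraries were apart in macrophages (0.981 to 1.08 in tumour and 1.21 to 1.27 in WT), neutrophils (1.1 to 1.23 and 0.857 to 0.962 in that order), epithelial cells (1.25 to 1.58 and 0.831 to 0.962) and total lung (0.612 to 0.881 and 1.24 to 1.51). The estimates of tumour total lung replicates 12 and 13 are uncertain. The part of depth in the differences was not tested.

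Mmp12, the macrophage metalloelastase that degrades elastin, had the highest FPKM of the families in any group. It stood at 713.0, 827.3 and 670.8 FPKM in tumour macrophages, against 3.9 and 25.4 FPKM in WT macrophages. The 3 tumour libraries lay far above both WT libraries, which differed from each other by several fold. The difference was 6.02 on the log2 scale (SE 0.62, adjusted p = 0.000519). In monocytes Mmp12 was at 143.8 and 94.0 FPKM in tumour and 2.46 and 6.64 FPKM in WT libraries, without overlap, with a difference of 4.51 (adjusted p = 0.131). Tumour neutrophils had 9.25, 4.24 and 7.5 FPKM and WT neutrophils 3.54, 3.42 and 2.48 FPKM, a difference of 0.9 (SE 0.24, adjusted p = 0.0099) that did not pass with all 10 groups fitted together (adjusted p = 0.396). In epithelial cells the groups overlapped, with 14.8, 1.23 and 4.19 FPKM in tumour and 0.936, 20.0 and 0.518 FPKM in WT libraries. WT epithelial replicate 9 alone held the 20.0 FPKM. The summed macrophage markers of that library (4 of the 6 listed are in the table) came to 28.7 FPKM, against 16.1 and 15 in the other WT epithelial libraries. Its neutrophil markers (20.6 FPKM, against 6.36 and 1.03) and lymphocyte markers (110.4 FPKM, against 53.6 and 72.3) were the highest there too. The part of any of these markers in its Mmp12 value was not tested. Among the tumour cells, Mmp12 was higher in macrophages than in monocytes by 2.65 (adjusted p = 0.023), neutrophils by 6.58 (adjusted p = 1.55e-07) and epithelial cells by 7.02 (adjusted p = 6.42e-08). Tumour neutrophils and epithelial cells were not told apart, with a difference of 0.44 (95% confidence interval -1.18 to 2.06).

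Mmp19, a secreted MMP known to cut basement membrane components, averaged highest in macrophages and next in monocytes among the sorted tumour cells, as Mmp12 did. Tumour macrophages held 129.6, 150.7 and 161.2 FPKM and WT macrophages 37.7 and 49.2 FPKM, with every tumour library above both WT ones (log2 difference 1.74, SE 0.15, adjusted p = 0.000245). Tumour neutrophils had 4.28, 8.62 and 4.13 FPKM against 0.658, 0.359 and 0.563 FPKM in WT neutrophils (2.07, SE 0.24, adjusted p = 0.000165). In monocytes the levels were 78.6 and 34.7 FPKM in tumour and 8.86 and 11.2 FPKM in WT libraries, without overlap. Epithelial libraries overlapped, at 16.1, 2.46 and 4.62 FPKM in tumour and 1.44, 4.41 and 2.95 FPKM in WT lung. The highest epithelial values of Mmp12 and Mmp19 in tumour lung came from replicate 9, whose summed macrophage markers were also the highest of the tumour epithelial libraries, 166.8 FPKM against 39.0 and 102.3 FPKM in replicates 10 and 11. The part of those markers in the epithelial levels was not tested. Exons of Mmp19 overlap those of Tmem198b on the opposite strand. No source used here states that reads were counted by strand, so reads within the 789 shared exon bases cannot be told apart. The overlap of Mmp12 with Mmp1b covers 157 exon bases. Reads in shared exon bases are likewise unresolved for Mmp11 (Chchd10), Mmp12 (Mmp1b), Mmp28, Adamts7, Adamts8, Adamts9, Timp3 (Syn3) and Timp4 (Syn2). Mmp7, Mmp24 and Adamts4, among the genes below 1 FPKM, have such overlaps too.

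Mmp14, a membrane-anchored collagenase that also activates the Mmp2 precursor on the cell surface, was higher in tumour lung in all preparations with calls, most of all in macrophages. In macrophages it was at 106.7, 104.8 and 145.3 FPKM in tumour and 2.49 and 2.55 FPKM in WT lung, a log2 difference of 5.08 (SE 0.16, adjusted p = 4.99e-06). No WT macrophage library came near a tumour one. Tumour neutrophils held 18.5, 17.1 and 14.4 FPKM and WT neutrophils 3.2, 2.77 and 1.53 FPKM (2.36, SE 0.19, adjusted p = 3.59e-05). Tumour epithelial cells held 59.8, 33.4 and 63.9 FPKM and WT epithelial cells 14.6, 11.1 and 17.4 FPKM (1.77, SE 0.27, adjusted p = 0.00905). The groups did not overlap in either preparation. In monocytes Mmp14 was at 74.3 and 32.3 FPKM in tumour and 4.89 and 7.88 FPKM in WT libraries. In tumour lung macrophages held the most Mmp14 and exceeded epithelial cells by 1.21 on the log2 scale (adjusted p = 0.000868), whereas in WT lung epithelial cells held the most among the sorted cells. Tumour monocytes and epithelial cells were not told apart (-0.04, 95% confidence interval -0.71 to 0.63). The tumour minus WT difference in macrophages exceeded that in neutrophils by 2.71 and that in epithelial cells by 3.31. Both passed the interaction test, as did 10 and 13 of the 30 genes of the families tested, near the 39.2% and 37.3% of all 12642 genes.

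**Figure D3:**
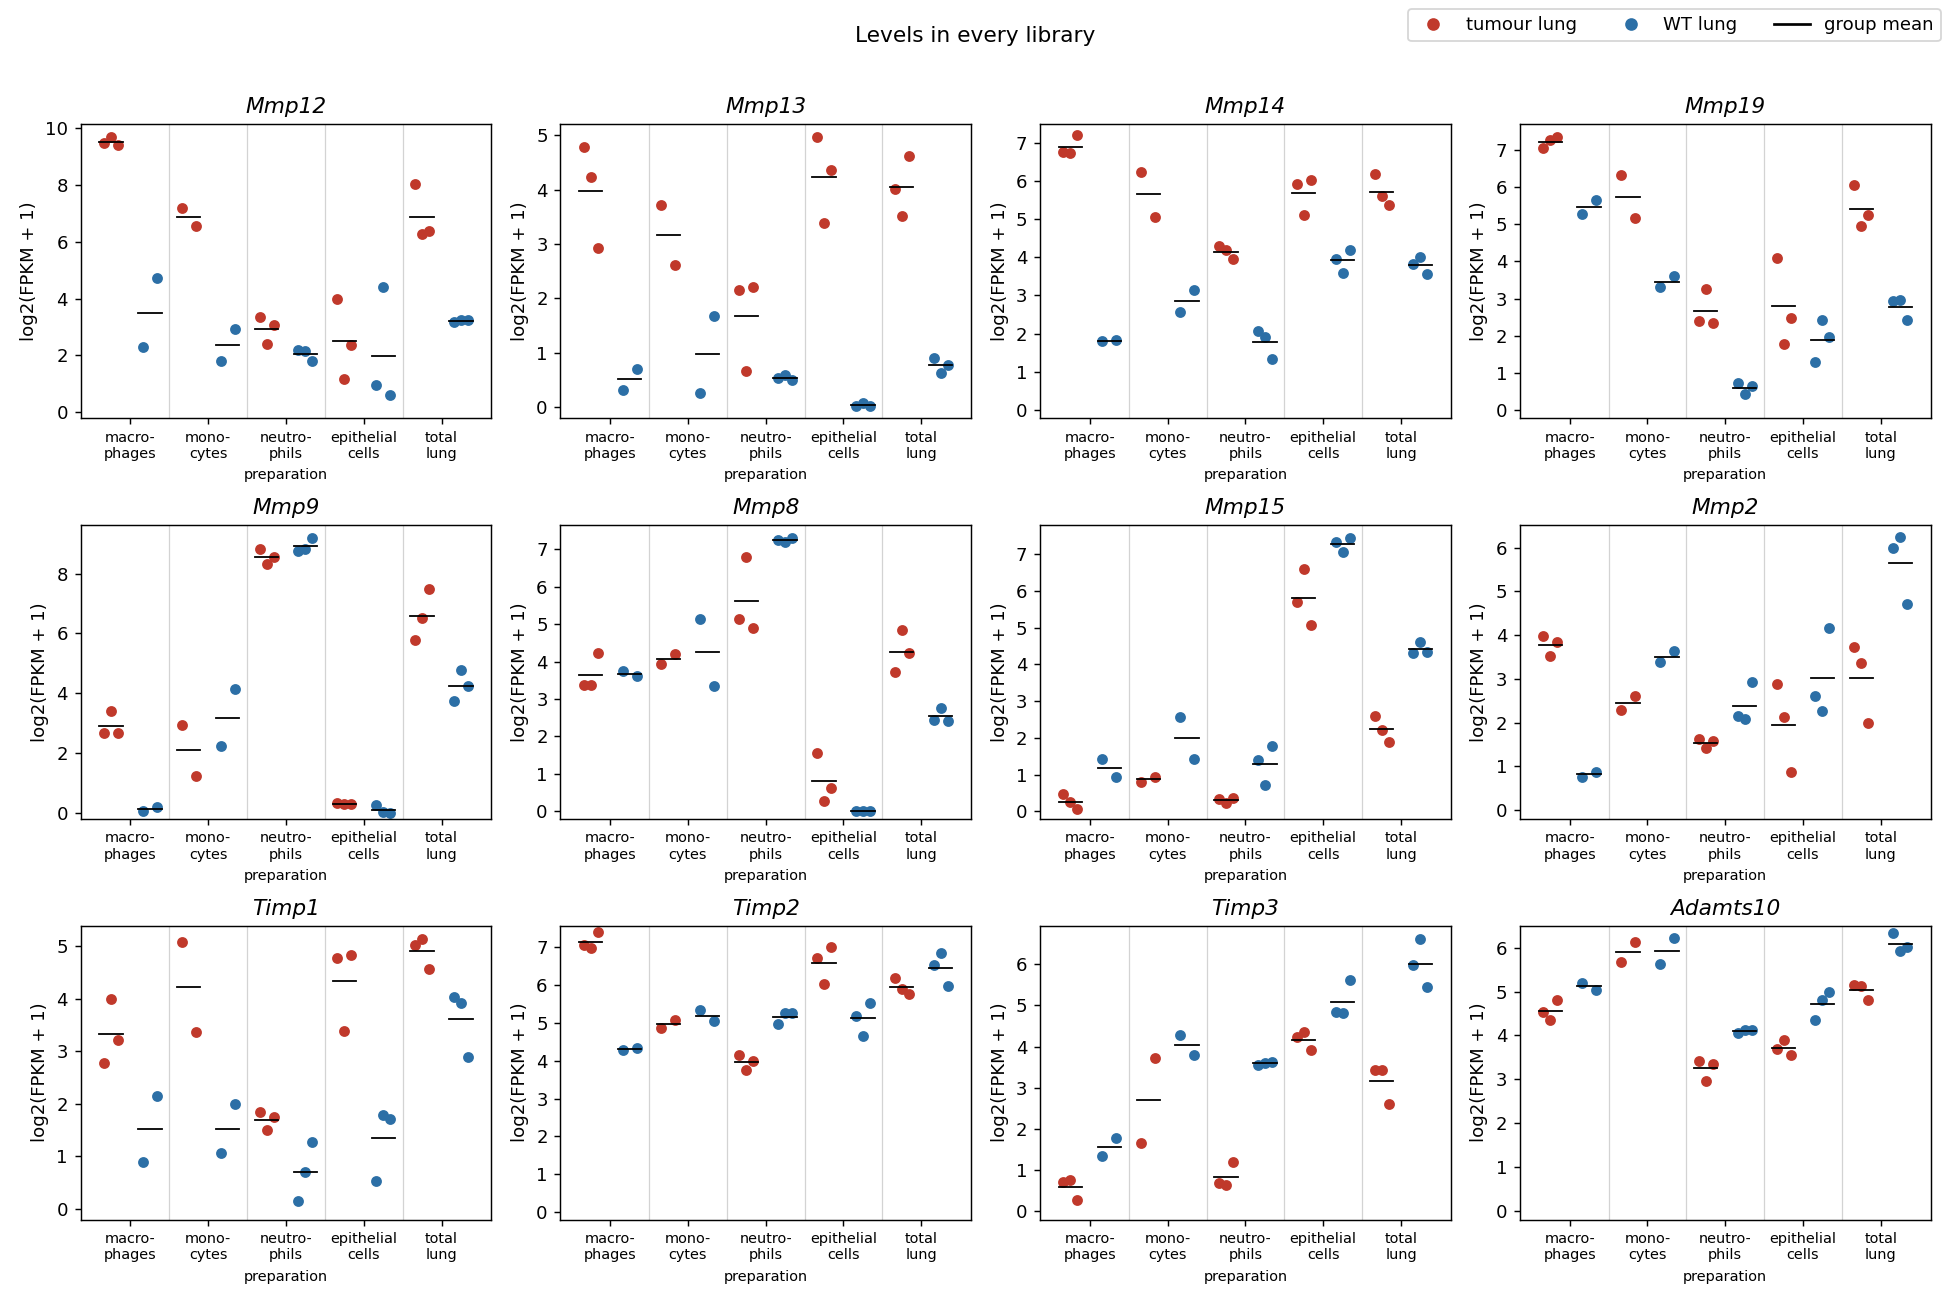
Levels of 12 genes in every library as log2(FPKM + 1), with tumour (red) left of WT (blue) in each preparation and black bars at the group means. Mmp14 lies higher in tumour libraries of every preparation without overlap, while Timp3 lies lower in tumour libraries of every preparation.

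Mmp15, another membrane-type MMP, was an epithelial gene and ran the other way. It was at 50.6, 96.5 and 32.9 FPKM in tumour epithelial cells and 160.9, 133.4 and 171.4 FPKM in WT epithelial cells, with all tumour libraries below all WT ones. The log2 difference was -1.49 (SE 0.35, adjusted p = 0.0282). This call was lost without tumour replicate 9 (adjusted p = 0.102) or 11 (0.0518) and without WT replicate 8 (0.0952), 9 (0.0563) or 10 (0.0861). Alveolar type I markers summed to 832.1, 1187.7 and 518.7 FPKM in the same tumour epithelial libraries and 1545.4, 1393.6 and 1818.5 FPKM in the WT ones. Of the 4 tested, 2 were called lower and 0 higher in tumour. The part of these markers in the epithelial Mmp15 values was not tested. In total lung, Mmp15 was at 5.07, 3.68 and 2.67 FPKM in tumour and 18.9, 23.5 and 19.2 FPKM in WT libraries (-2.18, SE 0.19, adjusted p = 0.000272). Mmp15 was also lower in tumour neutrophils, with 0.274, 0.179 and 0.298 FPKM against 1.63, 0.632 and 2.42 FPKM in WT neutrophils (-0.97, adjusted p = 0.0083).

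Mmp25, the glycolipid-anchored leukolysin of neutrophils, stood at 20.4, 12.3 and 17.6 FPKM in tumour and 16.2, 14.6 and 16.7 FPKM in WT neutrophils, and these groups overlapped (0.05, 95% confidence interval -0.33 to 0.44). In macrophages it was at 14.2, 23.4 and 5.62 FPKM in tumour and 1.58 and 1.22 FPKM in WT libraries (2.49, SE 0.49, adjusted p = 0.00813). Without WT macrophage replicate 2 the macrophage call was lost (adjusted p = 0.0593). Tumour neutrophils and tumour macrophages were not told apart in Mmp25 (0.37, 95% confidence interval -0.37 to 1.11). The summed neutrophil markers (5 of 6 in the table) were at 235.2, 96.6 and 215.5 FPKM in tumour macrophage replicates 1, 2 and 3. They were at 44.1 and 33.3 FPKM in WT macrophages, against 10631.4 to 12265.4 FPKM in tumour neutrophils. Of the tumour macrophage libraries, replicate 2 had the lowest sum and the highest Mmp25 and Mmp9, and replicate 3 the highest Mmp8. The part of the neutrophil markers in the macrophage levels of Mmp25, Mmp9 and Mmp8 was not tested.

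Mmp13, a collagenase of fibrillar collagen, was found mainly in tumour macrophages, monocytes and epithelial cells. Its largest difference was in epithelial cells, at 30.2, 9.41 and 19.7 FPKM in tumour and 0.0151, 0.0523 and 0.0135 FPKM in WT libraries (4.2, SE 0.38, adjusted p = 0.00215). Every WT epithelial library was near 0. In macrophages the levels were 26.7, 17.9 and 6.57 FPKM in tumour and 0.25 and 0.626 FPKM in WT libraries (3.47, SE 0.5, adjusted p = 0.00223). Monocytes had 12.1 and 5.13 FPKM in tumour and 0.196 and 2.21 FPKM in WT libraries. Tumour neutrophils had 3.44, 0.591 and 3.62 FPKM and WT neutrophils 0.453, 0.514 and 0.405 FPKM, and the neutrophil difference of 1.13 (adjusted p = 0.0234) was lost without WT replicate 5 (adjusted p = 0.0586), 6 (0.0528) or 7 (0.0556). Among tumour cells, macrophages and epithelial cells were not told apart (-0.26, 95% confidence interval -1.25 to 0.74), nor were macrophages and monocytes (0.82, 95% confidence interval -0.29 to 1.93). Each of these 3 exceeded neutrophils, by 2.31 in macrophages, 1.49 in monocytes and 2.56 in epithelial cells (adjusted p = 0.000199, 0.0186 and 4e-05). Total lung held 15.2, 10.5 and 23.6 FPKM in tumour and 0.879, 0.54 and 0.72 FPKM in WT libraries (3.28, SE 0.26, adjusted p = 0.000201).

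Mmp8, the neutrophil collagenase stored in granules, was at 34.5, 110.3 and 29.1 FPKM in tumour neutrophils, against 150.9, 144.5 and 155.9 FPKM in WT neutrophils. All tumour libraries were lower than all WT ones, and replicate 7 stood well above the other 2 tumour libraries. The log2 difference was -1.62 (SE 0.41, adjusted p = 0.00856). In macrophages Mmp8 was at 9.3, 9.39 and 17.7 FPKM in tumour and 12.5 and 11.2 FPKM in WT libraries, and in monocytes at 14.2 and 17.4 FPKM in tumour and 34.4 and 9.26 FPKM in WT libraries, with overlap in both. Epithelial cells had 1.92, 0.198 and 0.539 FPKM in tumour libraries, and Mmp8 was listed at 0 in all 3 WT epithelial libraries. In total lung the direction was the opposite of that in neutrophils, with 12.1, 27.7 and 17.7 FPKM in tumour and 4.46, 5.78 and 4.36 FPKM in WT libraries (1.71, SE 0.27, adjusted p = 0.00228).

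Mmp9, the gelatinase of neutrophil granules, was the most abundant member in neutrophils at 454.4, 319.2 and 372.1 FPKM in tumour and 433.1, 453.7 and 578.2 FPKM in WT libraries. These groups overlapped and the difference did not pass (-0.36, 95% confidence interval -0.74 to 0.02, adjusted p = 0.0956). Tumour neutrophils exceeded tumour macrophages by 5.65, monocytes by 6.48 and epithelial cells by 8.26 on the log2 scale (adjusted p = 2.45e-10, 3.84e-10 and 2.1e-13). In total lung Mmp9 was at 53.5, 90.7 and 178.7 FPKM in tumour and 12.3, 26.4 and 18 FPKM in WT libraries (2.34, SE 0.43, adjusted p = 0.00455). Tumour macrophages held 5.39, 9.55 and 5.31 FPKM and WT macrophages 0.0439 and 0.134 FPKM (2.79, SE 0.25, adjusted p = 0.000291). Monocytes overlapped, at 6.66 and 1.35 FPKM in tumour and 3.67 and 16.6 FPKM in WT libraries. The neutrophil marker genes Csf3r and Cxcr2 averaged 241.6 ± 74.8 and 26.6 ± 11.4 FPKM in tumour total lung and 44.3 ± 4.71 and 3.68 ± 0.563 FPKM in WT total lung (SD, n = 3 each). In unsorted lung, more cells of a type and more RNA per cell cannot be told apart, and the part of these markers in the total lung levels of Mmp8, Mmp9 and Mmp25 was not tested. Mmp25 in total lung was at 6.33, 7.02 and 13.2 FPKM in tumour and 2.12, 4.34 and 2.52 FPKM in WT libraries (1.28, SE 0.29, adjusted p = 0.0112).

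Mmp2, the gelatinase typical of fibroblasts, was at 12.3, 9.31 and 2.95 FPKM in tumour total lung, against 62.4, 75.2 and 25.2 FPKM in WT total lung, the highest group (-2.63, SE 0.53, adjusted p = 0.00637). Macrophages moved the other way, with 14.7, 10.5 and 13.4 FPKM in tumour and 0.69 and 0.831 FPKM in WT libraries (2.97, SE 0.17, adjusted p = 4.06e-05). In neutrophils Mmp2 was at 2.08, 1.68 and 1.99 FPKM in tumour and 3.41, 3.24 and 6.57 FPKM in WT libraries (-0.84, SE 0.22, adjusted p = 0.00935), and this call was lost when all 10 groups were fitted together (adjusted p = 0.2). Tumour exceeded WT in macrophages and fell short of it in neutrophils, and the interaction between these preparations was 3.81 (SE 0.76, adjusted p = 0.000379). Monocyte values were 3.9 and 5.11 FPKM in tumour and 9.45 and 11.4 FPKM in WT libraries. Epithelial libraries overlapped, at 6.33, 3.34 and 0.813 FPKM in tumour and 5.08, 3.82 and 17 FPKM in WT lung. Fibroblast and stromal markers (8 of 8 in the table, none at 0) summed to 98.5 to 277.4 FPKM in tumour and 454.6 to 1296.3 FPKM in WT total lung. In macrophages the same sum was 5.13 to 13.8 FPKM in tumour and 14 to 26.8 FPKM in WT libraries. The part of these markers in the total lung and macrophage levels of Mmp2 was not tested.

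Mmp3, stromelysin-1 of connective tissue cells, was lower in tumour total lung, at 5.12, 4.79 and 3.89 FPKM, against 32.3, 38.8 and 23.5 FPKM in WT total lung (-2.52, SE 0.19, adjusted p = 0.000169). Epithelial libraries had 10.7, 3.06 and 6.31 FPKM in tumour and 1.97, 2.55 and 5.18 FPKM in WT lung, with overlap. Monocytes had 1.99 and 3.78 FPKM in tumour and 4.78 and 10.6 FPKM in WT libraries, without a call. Mmp10, the related stromelysin-2 of injured epithelium, was at 7.55, 2.89 and 6.86 FPKM in tumour epithelial cells, while WT epithelial libraries were listed at 0, 0.0214 and 0 FPKM. The difference was 2.67 (SE 0.32, adjusted p = 0.00499), and the groups were far apart. Mmp10 in total lung was at 1.65, 0.746 and 5.51 FPKM in tumour and 0.165, 0.0951 and 0.164 FPKM in WT libraries (1.45, adjusted p = 0.0297), a call that was lost without WT replicate 11 (adjusted p = 0.0756), 12 (0.0774) or 13 (0.0629). Mmp10 was listed at 0 in all WT monocyte and WT neutrophil libraries. Mmp11, a stromelysin made active inside the cell by furin, marked the epithelial gate without a change, at 14.5, 11.8 and 15.5 FPKM in tumour and 12.3, 11.6 and 17.2 FPKM in WT libraries (0.03, 95% confidence interval -0.41 to 0.48). In total lung Mmp11 fell by 0.78 on the log2 scale (adjusted p = 0.0134), and without WT replicate 11 the adjusted p was 0.055.

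Of the remaining MMPs, Mmp28, the epilysin of epithelium, was at 8.87, 4.86 and 12.1 FPKM in tumour and 3.73, 2.66 and 3.99 FPKM in WT epithelial cells. The groups did not overlap, and the difference of 1.05 (SE 0.31, adjusted p = 0.0484) lay close to the threshold. The Mmp28 call was lost without tumour replicate 9 (adjusted p = 0.157) or 11 (0.135) and without WT replicate 8 (0.117), 9 (0.111) or 10 (0.0936). Mmp23, a membrane-tethered MMP without the usual hemopexin domain, was at 3.24, 2.68 and 2.67 FPKM in tumour and 7.41, 8.92 and 4.03 FPKM in WT total lung (-0.96, SE 0.24, adjusted p = 0.0161), and without WT replicate 11 the adjusted p was 0.0603. In macrophages Mmp23 did not pass, at 1.36, 3.58 and 1.14 FPKM in tumour and 0.976 and 0.719 FPKM in WT libraries.

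Among the ADAMTS proteases, Adamts10, which associates with fibrillin microfibrils, had the highest group mean, in WT total lung, and among the sorted cells averaged highest in monocytes, at 50 and 69.5 FPKM in tumour and 48.7 and 73.9 FPKM in WT libraries. These monocyte groups overlapped fully (-0.02, 95% confidence interval -0.7 to 0.66). Elsewhere Adamts10 was lower in tumour lung. Neutrophils had 9.74, 6.82 and 9.21 FPKM in tumour and 15.5, 16.4 and 16.4 FPKM in WT libraries (-0.85, SE 0.14, adjusted p = 0.000985). Total lung had 34.6, 33.9 and 27 FPKM in tumour and 79.7, 59.7 and 63.4 FPKM in WT libraries (-1.06, SE 0.15, adjusted p = 0.00143). Both pairs of groups were apart, and these calls did not depend on any single library. In epithelial cells the values were 11.8, 13.8 and 10.8 FPKM in tumour and 19.3, 27.2 and 31.0 FPKM in WT lung (-1.01, SE 0.2, adjusted p = 0.0169). Without tumour replicate 9 or 11 or WT replicate 10 the adjusted p was 0.0749, 0.0518 or 0.0543. Macrophages had 22.2, 19.3 and 26.8 FPKM in tumour and 35.8 and 31.9 FPKM in WT lung (-0.56, SE 0.15, adjusted p = 0.0258), and the call was lost without tumour replicate 1 (0.0685) or 2 (0.0515) or WT replicate 1 (0.171) or 2 (0.0865).

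Adamts1, which cuts aggrecan and versican, was at 22.4, 23.7 and 18.8 FPKM in tumour and 28.8, 20.9 and 38.3 FPKM in WT epithelial cells, which overlapped, and at 7.85, 11.3 and 6.27 FPKM in tumour and 47.3, 42.6 and 25.5 FPKM in WT total lung (-2.05, SE 0.27, adjusted p = 0.00115). Tumour neutrophils held 0.433, 0.532 and 1.1 FPKM and WT neutrophils 6.83, 5.93 and 3.95 FPKM (-1.96, SE 0.21, adjusted p = 0.000117). Monocytes stood at 2.32 and 6.19 FPKM in tumour and 14.4 and 14.2 FPKM in WT libraries. Endothelial markers (6 of 6 in the table, none at 0) summed to 9.63 to 17.3 FPKM in tumour and 48.7 to 61.7 FPKM in WT neutrophils, and to 69.9 to 195.6 FPKM in tumour and 405.3 to 654.5 FPKM in WT monocytes. Fibroblast and stromal markers summed to 11.2 to 19.4 FPKM in tumour and 31.0 to 103.0 FPKM in WT neutrophils, and smooth muscle markers (5 of 5) to 12.9 to 23.4 FPKM in tumour and 38.8 to 93.4 FPKM in WT neutrophils. All 6 endothelial markers and 5 of the 7 fibroblast markers tested were lower in tumour neutrophils. Alveolar type II markers (5 of 5) summed to 15.8 to 45.9 FPKM in tumour and 511.2 to 2054.9 FPKM in WT neutrophils. Alveolar type I markers (4 of 4) summed to 16.6 to 27.3 FPKM in tumour and 45.7 to 94.6 FPKM in WT neutrophils. All 5 type II and 3 of the 4 type I markers were lower in tumour neutrophils, while 4 of 5 epithelial markers were higher. The part of these markers in the neutrophil differences of Adamts1, Timp3, Timp2, Mmp2 and Mmp15 was not tested.

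Adamts13, which cleaves von Willebrand factor and is known from liver stellate cells, was at 5.38, 8.09 and 11.2 FPKM in tumour and 15.4, 19.2 and 14.5 FPKM in WT neutrophils (-0.95, SE 0.22, adjusted p = 0.00569). In macrophages it ran the other way, at 5.93, 5.67 and 4.18 FPKM in tumour and 1.49 and 1.93 FPKM in WT libraries (1.2, SE 0.18, adjusted p = 0.00254). The groups did not overlap in either preparation, and the interaction was 2.15, past its test. Adamts14, a procollagen N-propeptidase, was highest among the sorted cells in monocytes, at 6.84 and 25.4 FPKM in tumour and 10.8 and 24.6 FPKM in WT libraries. Lymphocyte markers (5 of 5) summed to 199.4 and 273.9 FPKM in these tumour libraries and 207.8 and 413.9 FPKM in these WT ones. Their part in the monocyte levels of Adamts14 and Adamts10 was not tested. In total lung Adamts14 was at 4.74, 3.82 and 5.95 FPKM in tumour and 15.1, 14.6 and 14.4 FPKM in WT libraries (-1.44, SE 0.14, adjusted p = 0.000446). Adamts2, its relative that trims procollagens, was at 3.89, 3.51 and 1.82 FPKM in tumour and 20.4, 27.5 and 8.87 FPKM in WT total lung (-2.2, SE 0.39, adjusted p = 0.00387). Macrophages had 0.861, 0.215 and 0.776 FPKM of Adamts2 in tumour and 5.34 and 4.13 FPKM in WT libraries (-1.84, SE 0.23, adjusted p = 0.00122).

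Adamts15, a proteoglycan-cutting member, was at 5.81, 4.13 and 10.7 FPKM in tumour and 1.04, 0.271 and 1.67 FPKM in WT epithelial cells, without overlap (1.96, SE 0.39, adjusted p = 0.0174). The call was lost without tumour replicate 9 (adjusted p = 0.068) or WT replicate 8 (0.0661). Adamts7, which cuts cartilage oligomeric matrix protein, was at 1.21, 0.484 and 1.61 FPKM in tumour and 0.103, 0 and 0.0623 FPKM in WT epithelial cells (0.96, adjusted p = 0.0464). The adjusted p of Adamts7 was 0.11, 0.0884 and 0.0995 without WT replicate 8, 9 and 10. Adamts9 peaked in epithelial cells at 3.21, 4.11 and 1.46 FPKM in tumour and 3.48, 1.94 and 4.84 FPKM in WT libraries, with overlap. In total lung, Adamts8 was at 0.748, 0.855 and 0.161 FPKM in tumour and 4.81, 3.2 and 1.9 FPKM in WT libraries (-1.41, adjusted p = 0.00697), Adamts5 at 0.338, 0.32 and 0.335 FPKM in tumour and 2.2, 1.74 and 0.991 FPKM in WT libraries (-0.96, adjusted p = 0.00734), and Adamts6 at 2.72, 3.44 and 2.79 FPKM in tumour and 4.57, 4.22 and 4.76 FPKM in WT libraries (-0.47, adjusted p = 0.0187). The groups of all 3 were apart. The Adamts6 call was lost without tumour replicate 12 (adjusted p = 0.0563) and without WT replicate 11 (0.0682) or 13 (0.0602). Of the 10 ADAMTS genes tested in total lung, 7 were lower and none was higher (20.4% and 22.1% of all genes), beside 7 of 8 fibroblast markers and 6 of 6 endothelial markers that were lower there. The part of those cells in the total lung values was not tested.

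The TIMPs split. Timp1, the inducible inhibitor, was at 26.3, 9.49 and 27.4 FPKM in tumour and 0.438, 2.46 and 2.29 FPKM in WT epithelial cells (2.98, SE 0.49, adjusted p = 0.0104). Macrophages had 5.82, 14.9 and 8.23 FPKM in tumour and 0.867 and 3.41 FPKM in WT libraries (1.8, SE 0.45, adjusted p = 0.0207). Without WT macrophage replicate 1 the difference was 1.18 and the adjusted p was 0.133. Neutrophils had 2.59, 1.82 and 2.35 FPKM in tumour and 0.106, 0.637 and 1.42 FPKM in WT libraries (0.98, SE 0.26, adjusted p = 0.0101). That call was lost when all 10 groups were fitted together (adjusted p = 0.118). In monocytes Timp1 was at 32.6 and 9.36 FPKM in tumour and 1.08 and 2.99 FPKM in WT libraries, and in total lung at 31.5, 34.3 and 22.7 FPKM in tumour and 15.4, 14.2 and 6.4 FPKM in WT libraries (1.29, SE 0.31, adjusted p = 0.0127). In each of the 5 preparations the tumour libraries of Timp1 lay above the WT libraries without overlap.

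Timp2, which inhibits MMPs and also bridges Mmp14 to the Mmp2 precursor, was the most abundant TIMP in every group. Macrophages held 131.6, 125.6 and 166.8 FPKM in tumour and 18.5 and 19.3 FPKM in WT libraries (2.83, SE 0.14, adjusted p = 2.26e-05), and epithelial cells 104.3, 64.3 and 127.5 FPKM in tumour and 35.3, 24.3 and 45.3 FPKM in WT libraries (1.46, SE 0.3, adjusted p = 0.0203). The epithelial call was lost without tumour replicate 9 (adjusted p = 0.083) or 11 (0.053) and without WT replicate 8 (0.0739) or 9 (0.0503). Neutrophils ran the other way, at 16.8, 12.6 and 14.9 FPKM in tumour and 30.3, 37.0 and 37.1 FPKM in WT libraries (-1.19, SE 0.14, adjusted p = 0.000171). Timp2 therefore rose in macrophages and epithelial cells and fell in neutrophils, with interactions of 4.02 between macrophages and neutrophils and -2.65 between neutrophils and epithelial cells, both past the test (38.8% of all genes passed for neutrophils and epithelial cells). Monocytes overlapped at 27.9 and 32.8 FPKM in tumour and 39.2 and 32.3 FPKM in WT libraries. Total lung did not pass, at 71.2, 58.9 and 53.7 FPKM in tumour and 91.3, 115.0 and 61.7 FPKM in WT libraries (-0.5, adjusted p = 0.107).

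Timp3, the inhibitor that stays bound to matrix, was lower in tumour lung. Neutrophils held 0.601, 0.562 and 1.28 FPKM in tumour and 10.7, 11.1 and 11.4 FPKM in WT libraries (-2.75, SE 0.16, adjusted p = 7.85e-06), and total lung 9.74, 9.75 and 5.12 FPKM in tumour and 62.4, 97.5 and 42.5 FPKM in WT libraries (-2.86, SE 0.33, adjusted p = 0.000682). The 3 WT neutrophil libraries were within a narrow range and far above the tumour ones. Epithelial cells had 17.8, 19.4 and 14.1 FPKM in tumour and 27.7, 27.1 and 47.7 FPKM in WT libraries (-0.92, SE 0.24, adjusted p = 0.0358). Without any 1 of tumour replicates 9 and 11 and WT replicates 8, 9 and 10 the epithelial adjusted p was 0.111, 0.103, 0.0781, 0.0507 and 0.0678 in that order. Macrophages were low, at 0.639, 0.686 and 0.218 FPKM in tumour and 1.53 and 2.45 FPKM in WT libraries (-0.98, SE 0.23, adjusted p = 0.0155), a call lost with all 10 groups fitted together (adjusted p = 0.093). Monocytes had 2.15 and 12.3 FPKM in tumour and 18.3 and 13 FPKM in WT libraries. Endothelial markers were lower in tumour libraries of epithelial cells too, at 6.52 to 34.8 FPKM against 111.0 to 238.9 FPKM in WT libraries, and in macrophages, at 4.34 to 9.1 FPKM against 42.2 to 44.5 FPKM in WT libraries. Their part in the Timp3 values was not tested. Timp4 peaked at 2.27 FPKM in 1 tumour total lung library and was tested in total lung only, with no difference past the threshold (-0.02, 95% confidence interval -0.97 to 0.93).

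The 3 genes counted for tumour macrophages were also higher in tumour total lung. Mmp12 was at 259.8, 76.0 and 82.0 FPKM in tumour and 7.96, 8.57 and 8.5 FPKM in WT total lung (3.67, SE 0.42, adjusted p = 0.000703). Mmp19 was at 65.2, 29.7 and 36.8 FPKM in tumour and 6.62, 6.78 and 4.4 FPKM in WT libraries (2.64, SE 0.28, adjusted p = 0.000576), and Mmp14 at 71.0, 47.4 and 40.3 FPKM in tumour and 13.2, 15.2 and 10.8 FPKM in WT libraries (1.91, SE 0.21, adjusted p = 0.000654). The tumour library with the highest values of all 3 was replicate 12. Its macrophage markers summed to 745.9 FPKM, against 315.2 and 666.0 FPKM in replicates 13 and 14 and 81.5 to 92.8 FPKM in WT total lung. The part of those markers in the levels of the 3 genes was not tested.

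Summed over the family, MMP transcripts came to 1070.9 ± 77.7 FPKM in tumour macrophages and 79.6 ± 22.0 FPKM in WT macrophages (SD, n = 3 and 2). Mmp12 made up 68.8% of the sum in tumour and Mmp19 54.6% of it in WT macrophages. In neutrophils the MMP sum was 492.7 ± 50 FPKM in tumour and 671.5 ± 86.8 FPKM in WT libraries, of which Mmp9 made up 77.5% in tumour and 72.7% in WT lung. Epithelial cells had sums of 189.1 ± 30.7 FPKM in tumour and 212.7 ± 23.2 FPKM in WT libraries, apart by less than the SD of the tumour libraries. Mmp15 took 31.7% of the tumour and 73.0% of the WT epithelial sum. TIMP sums were 151.5 ± 20.6 FPKM in tumour and 23.0 ± 3.0 FPKM in WT macrophages, 17.9 ± 2.61 and 46.9 ± 4.74 FPKM in tumour and WT neutrophils, and in epithelial cells 137.3 ± 39.1 FPKM for tumour and 71.6 ± 22.5 FPKM for WT. The ratio of the MMP sum to the TIMP sum was 7.17 ± 1.19 in tumour and 3.43 ± 0.512 in WT macrophages, 27.8 ± 3.7 in tumour and 14.3 ± 1.41 in WT neutrophils, and 4.22 ± 1.07 in tumour and 1.07 ± 0.105 in WT total lung. In epithelial cells the order was the reverse, at 1.45 ± 0.421 in tumour and 3.09 ± 0.585 in WT libraries. These sums describe transcripts and were not tested.

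**Figure D4:**
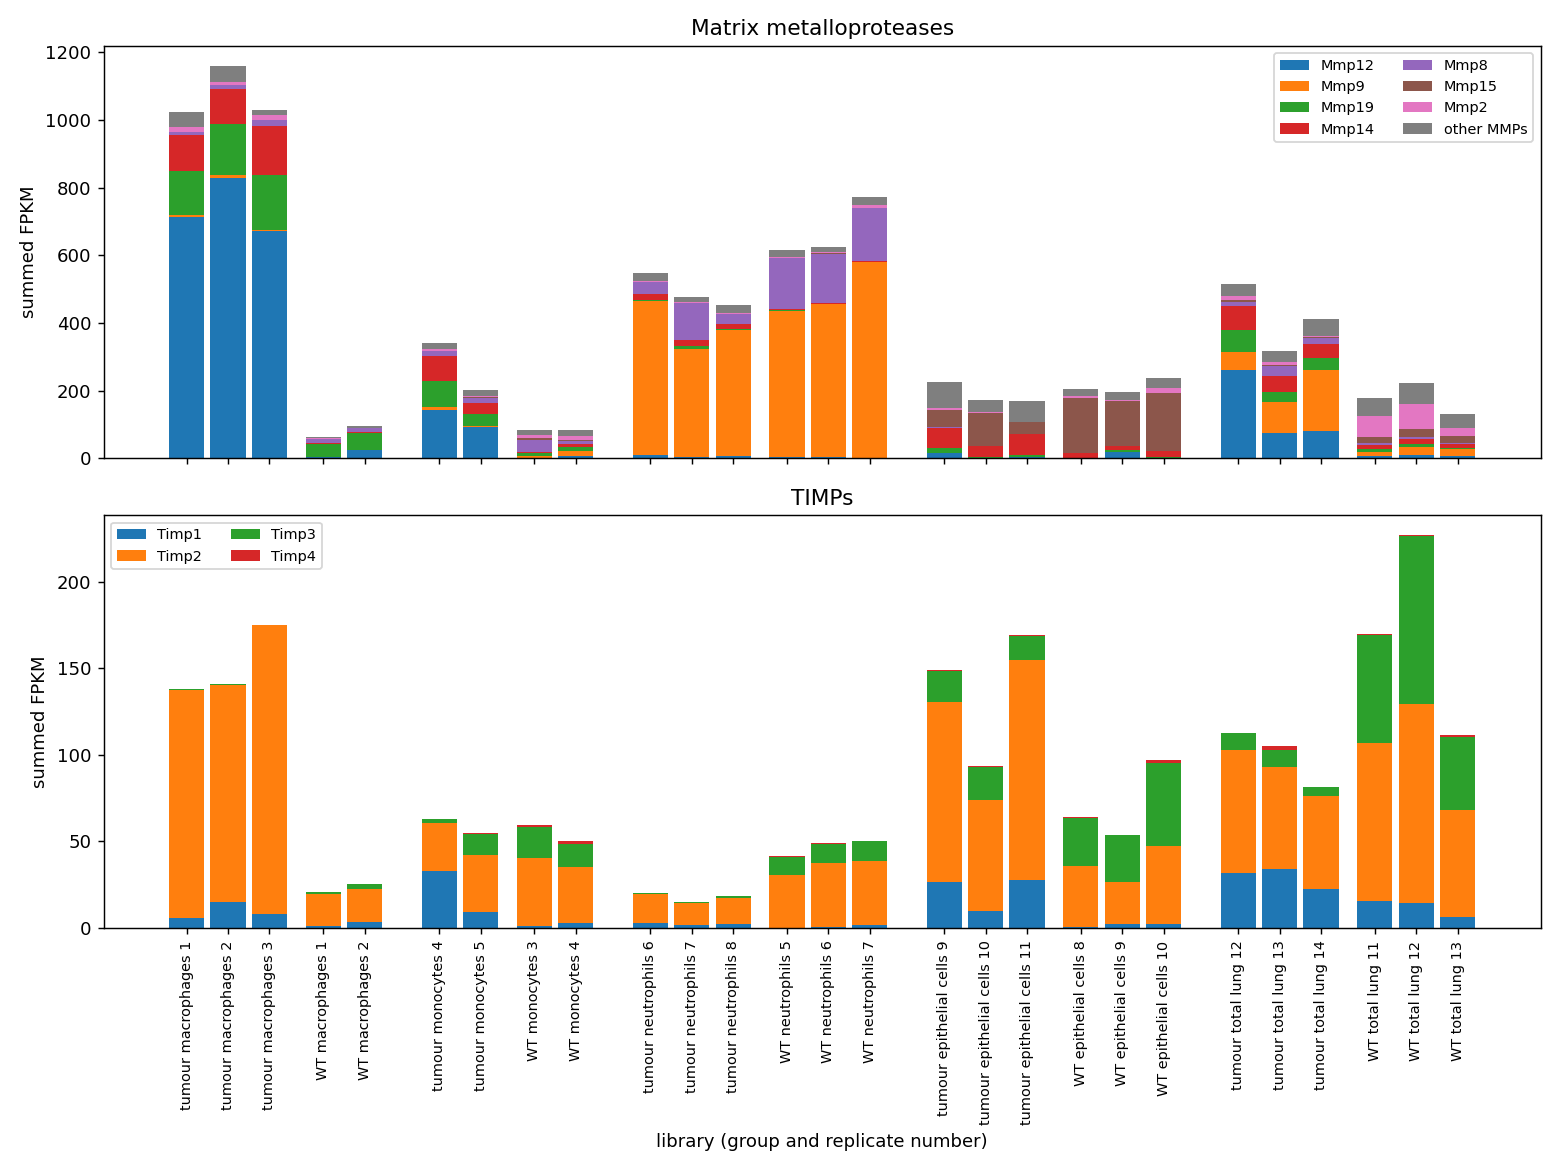
Summed FPKM of the MMPs and of the TIMPs in every library, with tumour left of WT in each preparation. The MMP sum is highest in tumour macrophages (1070.9 FPKM on average), and tumour and WT epithelial cells average 189.1 and 212.7 FPKM.

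The partners of these enzymes were described from fixed lists. Their counts stand beside the share of all genes tested that was called in the same direction. Of the activators and cell-surface partners, 5 of 9 tested were higher (20.3% of all genes) and 1 lower (17.7%) in tumour macrophages. In tumour neutrophils 3 of 11 were higher (33.3%) and 7 lower (25.8%). In tumour epithelial cells 7 of 11 were higher (14.9%) and none lower (8.89%), and in tumour total lung 5 of 11 were higher (22.1%) and none lower (20.4%). The list's median log2 difference was 0.45, -0.48, 1.19 and 0.29 in that order, beside 0, 0.11, 0.01 and -0.01 over all genes tested. Plau, the urokinase that starts plasmin-driven activation of MMPs, rose in all 4: to 195.8 ± 22.8 FPKM in tumour macrophages against 17.1 ± 1.56 FPKM in WT macrophages, to 80.7 ± 12.9 FPKM in tumour neutrophils against 12.4 ± 1.06 FPKM in WT neutrophils, to 5.32 ± 2.0 FPKM in tumour epithelial cells against 0.323 ± 0.375 FPKM in WT epithelial cells, and to 60.3 ± 11 FPKM in tumour total lung against 5.7 ± 1.23 FPKM in WT total lung. The log2 differences of Plau were 3.44, 2.6, 2.24 and 3.2. Sdc1 and Itgav, an integrin chain, rose by 2.52 and 1.15 on the log2 scale in macrophages, and Plat and Plaur by 2.82 and 2.13 in epithelial cells. In total lung, Plaur and Cd44 rose by 1.62 and 1.35. In neutrophils Cd44, a docking site for Mmp9, fell to 330.8 ± 67.2 FPKM in tumour libraries, against 780.8 ± 69.4 FPKM in WT libraries, while Furin, which activates membrane-type MMPs, rose by 0.77.

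Of the other secreted or surface proteases, 10 of 12 tested were higher in tumour macrophages (20.3% of all genes), 7 of 13 in neutrophils (33.3%), 7 of 13 in epithelial cells (14.9%) and 12 of 14 in total lung (22.1%). In the same order 1, 2, 0 and 0 were lower, against 17.7%, 25.8%, 8.89% and 20.4% of all genes. Adam8 rose to 189.1 ± 28.6 FPKM in tumour macrophages, against 16.4 ± 1.18 FPKM in WT macrophages, and fell to 281.8 ± 31.1 FPKM in tumour neutrophils, against 1269.4 ± 193.6 FPKM in WT neutrophils. The lysosomal cathepsins Ctsb and Ctsl rose by 2.97 and 1.91 on the log2 scale in macrophages, and Ctsk, Ctss and Ctsb by 3.24, 2.87 and 2.55 in total lung. Adamdec1 rose to 22.1 ± 8.53 FPKM in tumour neutrophils, against 0.336 ± 0.139 FPKM in WT neutrophils, where Ctsk rose by 1.61. In epithelial cells Ctss, Adam10 and Adam9 rose by 2.85, 0.94 and 0.82. Ctss is a macrophage gene too, and macrophage markers were higher in tumour epithelial cells (3 of 4 tested); their part in the Ctss value was not tested.

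Of the other inhibitors, 2 of 5 tested were higher and 2 lower in macrophages (20.3% and 17.7% of all genes), 1 of 6 higher and 4 lower in neutrophils (33.3% and 25.8%), 2 of 6 higher and 1 lower in epithelial cells (14.9% and 8.89%), and 3 of 8 higher and 1 lower in total lung (22.1% and 20.4%). Thbs1, a matrix protein that also binds MMPs, rose to 210.3 ± 59.3 FPKM in tumour macrophages, against 1.97 ± 0.406 FPKM in WT macrophages. Slpi, an inhibitor of serine proteases, fell in macrophages and neutrophils by 1.44 and by 2 on the log2 scale, and rose in epithelial cells and total lung by 2.18 and 1.27. Serpinb2 fell by 1.56 and Cst3 rose by 0.64 in neutrophils. Reck, a membrane-anchored inhibitor of MMPs, fell to 1.29 ± 0.213 FPKM in tumour total lung, against 6.98 ± 1.71 FPKM in WT total lung.

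Among 14 matrix substrates, 2 of 10 tested were higher and 2 lower in macrophages, near the 20.3% and 17.7% of all genes. In neutrophils 1 of 12 was higher and 9 lower (33.3% and 25.8% of all genes), in epithelial cells 5 of 14 higher and 1 lower (14.9% and 8.89%), and in total lung 4 of 14 higher and 5 lower (22.1% and 20.4%). Spp1, the osteopontin gene, and Fn1, fibronectin, rose in macrophages (by 4.26 and 1.42 on the log2 scale), epithelial cells (6.92 and 3.87) and total lung (6.14 and 2.65). Dcn, a fibroblast proteoglycan that is also among the stromal markers, fell in all 4, by 2.06 in macrophages, by 2.65 in neutrophils, by 1.73 in epithelial cells and by 3.62 in total lung. Col3a1 and Col1a2, stromal markers as well, fell by 1.38 and by 1.3 in neutrophils. Of the 7 AP-1 subunit genes, whose products bind AP-1 elements such as the letters shown in the Mmp13, Mmp12, Mmp3 and Mmp10 promoters, 1 was higher and 4 lower in macrophages, 2 higher and 4 lower in neutrophils, 3 higher and 1 lower in epithelial cells, and 1 higher and 2 lower in total lung. Of all genes, 20.3%, 33.3%, 14.9% and 22.1% were called higher in those preparations, and 17.7%, 25.8%, 8.89% and 20.4% lower. Jun was lower in macrophages, epithelial cells and total lung, at -0.87, -0.94 and -0.9, and higher in neutrophils, at 271.2 ± 15.4 FPKM in tumour and 172.2 ± 21.5 FPKM in WT libraries (0.66). Jund and Fosb were at -0.89 and -0.65 in macrophages. In neutrophils Fosl1, Fosb and Fos were at -2.07, -1.92 and -1.18, and Junb was at 0.7. In epithelial cells Junb and Fosl2 were at 1 and 0.82, and in total lung Fosl2 and Fosb were at 1.16 and -0.65, all past the test.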

How the data were processed

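RNA had been extracted from sorted or unsorted lung cells and sequenced after TruSeq library preparation, per the labels' protocols. Per the submitters' processing notes, the authors used CASAVA 1.8.2, TopHat2, Cufflinks and Cuffdiff on mm10 (GRCm38), and the deposited table holds FPKM per gene symbol. Aligner settings and strand are not given in the sources used here. FPKM were used as deposited, raised by a pseudocount of 1 and put on the log2 scale, so differences understate changes of genes near 0. Tests used genes that reached 1 FPKM in 2 or more libraries of a comparison, by limma 3.58.1 in R 4.3.3 with trend and empirical Bayes, two-sided, adjusted by Benjamini and Hochberg over all genes tested. The threshold was an adjusted p of 0.05. An interaction in the fit of all 10 groups tested differences between preparations.

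All 27 libraries were grouped by their cell type and source labels, and their replicate numbers are running numbers in the titles. The genes, lists and tests were chosen with earlier results of these data known. Every gene called, counted as highest or averaging at least 5 FPKM in a group is named, with values of every library for those averaging at least 10. Of each other list, the 3 largest differences past the test with a group mean of at least 5 FPKM are named, except a gene that is not reported here. Relative depth came from the spacing of values under 0.2 FPKM, read from the window of log2 ratios that held the most genes, and is rough. For tumour total lung replicates 12 and 13 that window held 36 and 29 genes and the next fullest 36 and 28. With no counts, no counting interval is given. The alternatives tried were quantile and upper-quartile scaling, robust moderation, pseudocounts of 0.1 and 5, the filter left out or set to 5 FPKM, a replicate block, all 10 groups fitted together and each library left out. The tests were tested on simulated data. Figures used matplotlib 3.10.9 in Python 3.11.15.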

Additional observations from a re-analysis of the deposited data

Results flagged for a closer look

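The tumour minus WT difference of some genes differed between sorted preparations by limma's interaction test with all 10 groups fitted together, at an adjusted p under 0.05. Of the families, 30 genes entered each test. In each pair the share of them that passed was near the share of all genes, so the counts do not set the families apart. Values in brackets are the tumour minus WT log2 difference of the first preparation minus that of the second. No explanation of these differences was tested, and the macrophage gates themselves differ, CD11b+ in tumour and CD11b- in WT lung.

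Between macrophages and neutrophils, 10 of the 30 genes had the higher difference in macrophages: Mmp12 (5.11), Timp2 (4.02), Mmp2 (3.81), Mmp9 (3.15), Mmp14 (2.71), Mmp25 (2.44), Mmp13 (2.34), Adamts1 (2.15), Adamts13 (2.15) and Timp3 (1.77). Over all 12642 genes, 39.2% passed this test. Mmp2, Adamts13 and Timp2 were called higher in tumour macrophages and lower in tumour neutrophils, each in its own comparison.

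Between macrophages and epithelial cells, 37.3% of all genes passed. The difference was higher in macrophages for Mmp12 (5.49), Mmp2 (4.03), Mmp14 (3.31), Mmp9 (2.58), Mmp25 (2.37), Adamts13 (1.48), Timp2 (1.37) and Mmp27 (0.99), and lower in macrophages for Mmp10 (-2.28), Adamts15 (-2.08), Adamts2 (-1.89), Mmp28 (-1.6) and Adamts7 (-1.03). Mmp27 is near the floor, at 0.231 to 1.21 FPKM in tumour macrophages and listed at 0 in both WT macrophage libraries. It was too low for the tumour and WT comparison of macrophages.

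Between neutrophils and epithelial cells, 38.8% of all genes passed. The difference was lower in neutrophils for Mmp13 (-3.07), Timp2 (-2.65), Mmp8 (-2.43), Adamts15 (-2.26), Mmp10 (-2.23), Timp1 (-2), Timp3 (-1.83), Mmp3 (-1.71), Adamts1 (-1.56) and Adamts7 (-0.89). Timp2 was called lower in tumour neutrophils and higher in tumour epithelial cells.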

How the results depend on the processing

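No called gene changed sign under any alternative run. The count of called genes in epithelial cells was 11 and 4 to 12 with 1 library left out, with the lowest count without tumour replicate 9 (4) and 5 to 6 without tumour replicate 11 or any WT library. In macrophages it was 13 and 9 to 13, in neutrophils 13 and 11 to 13, in total lung 22 and 17 to 23, and in monocytes 0 and 0 to 6, with 6 without tumour monocyte replicate 5 and 6 in the fit of all 10 groups. Without a WT macrophage library, Adamts2 and Timp3 no longer entered the macrophage test. With a filter of 5 FPKM the neutrophil count was 8. Counts of genes highest in a preparation moved as follows. Tumour macrophages had 3, and 2 with a pseudocount of 0.1 (without Mmp12) and 2 to 3 with 1 library left out. Tumour monocytes had 2, and 3 with a pseudocount of 0.1. WT epithelial cells had 4, and 2 with a pseudocount of 5, quantile or upper-quartile scaling. Tumour epithelial cells had 8, and 4 with a pseudocount of 5. Tumour neutrophils had 2, 4 with upper-quartile scaling and 1 to 2 with 1 library left out. WT monocytes had 1, 2 with a pseudocount of 0.1 and 1 to 4 with 1 library left out. The median log2 difference of all genes in neutrophils was 0.11, and 0.05 with quantile and -0.01 with upper-quartile scaling, with no change of direction in any called gene.

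Libraries with the same number in tumour and WT lung did not deviate together (correlations of deviations from the group means of -0.17 to 0.08), so the numbers were not taken as pairs. With the replicate block over the shared numbers, 3 epithelial genes passed (Mmp10, Mmp13 and Timp1), 11 in neutrophils, 13 in macrophages and 15 in total lung. Monocytes share 1 number and were given no replicate block. Precision is limited by 2 or 3 libraries a group and by unknown read counts.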
